A study of Homo sapiens with 16 samples.

Results

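The 10 genes described here are FOS, FOSB, FOSL1, FOSL2, JUN, JUNB, JUND, ATF3, EGR1 and IER2, a set of AP-1 and other immediate early genes with short-lived mRNAs. They were taken by symbol from the 60669 genes of each deposited table, and each was found once in both tables. RNA came from HMC3, a human cell line labelled as microglial. It was either wild type (WT) or labelled as a knockout (KO) of METTL3, the catalytic subunit of the enzyme that writes N6-methyladenosine (m6A) on mRNA, and no treatment or time point is given for any library. Of the 16 libraries, 10 were made from polyadenylated RNA with Smart-seq2 (5 per genotype) and 6 with a strand-directional kit once ribosomal RNA had been removed (3 per genotype), each from 100 ng of total RNA. The labels do not say whether the knockout is 1 clone or whether replicates were separate cultures, so p-values measure the spread between these libraries, which may be technical.

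AP-1 is a dimer of basic leucine zipper proteins, usually 1 from the FOS family and 1 from the JUN family. JUN proteins can pair with each other, whereas FOS proteins need a JUN partner to bind DNA. Immediate early genes are switched on within minutes of a stimulus, without new protein synthesis, and their mRNAs are normally destroyed soon after, largely through AU-rich elements in the 3' untranslated region. EGR1 is a zinc finger transcription factor of the same early wave, and in microglia these genes are known as markers of activation and of handling.

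The decay element is shown first because short-lived mRNAs of this kind are known for it. The motif TATTTAT, read as DNA on the gene's own strand, was found in the 3' untranslated region of 7 of the 10 members, against 35.8% of the 11784 protein-coding genes tested. One site is printed for each of the 5 of these genes whose mRNA changed in the rRNA-depleted libraries, with the motif in capitals, from GENCODE 29 transcripts on GRCh38.
FOS, chr14:75282062-75282086, plus strand: tttttaattTATTTATtaagatgga
FOSB, chr19:45474533-45474557, plus strand: ttccttagcTATTTATccctttcct
FOSL1, chr11:65892274-65892298, minus strand: ggcagctgcTATTTATtttcctaaa
FOSL2, chr2:28416096-28416120, plus strand: gcatctcacTATTTATtgacaggtt
JUN, chr1:58780821-58780845, minus strand: gcttatgaaTATTTATaacagcatt
FOS and FOSL2 each held 2 such sites, and JUND and ATF3 held 1 each. No match was present in JUNB, EGR1 or IER2. The shorter ATTTA, which lies inside TATTTAT, was present in 9 members, all but IER2, against 73.7% of genes. A match describes the letters only. Among the genes printed, FOS, FOSB and JUN fell and FOSL1 and FOSL2 rose, so mRNAs with this motif moved both ways.

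In the rRNA-depleted libraries, FOSL1 and FOSL2 were higher in the libraries labelled knockout, and FOS, FOSB, JUN and IER2 were lower. FOSL1 went from 169 to 577 TPM (a gene's share of the library's transcripts, by reads divided by gene length), while FOS went from 38.4 to 6.50 TPM. ATF3, EGR1, JUNB and JUND did not pass the test. By limma with Benjamini-Hochberg adjustment over all genes, 2 of the 10 rose (22.9% of all 14789 genes tested were called higher) and 4 fell (12.4% were called lower). All 10 members passed the filter of at least 1 TPM in at least 3 libraries. Their median log2 change was -0.49, against 0.41 for all genes tested, so a change near 0.41 is the middle of this comparison, and changes are also given relative to it. Together these are 6 of 10, against 35.3% of all genes called in either direction. The 2 groups of libraries did not overlap for 8 members (62.7% of all genes), 3 of them higher in knockout (41.1%) and 5 lower (21.6%).

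Knockout-labelled libraries 1 and 2 differed over 10117 genes by no more than the sampling noise of their reads (chi-square 1.02 per degree of freedom, p = 0.0687). They were averaged and counted as 1 sample, so the knockout group has n = 2 throughout. Over all 11410 genes with a length, with reads rounded, the pair did differ beyond sampling noise by the same chi-square test (p = 1.99e-07), at 1.07 per degree of freedom, still below every other pair with a shared label. Kept as separate samples, the 6 calls stood and EGR1 (limma adjusted p = 0.0466) and JUND (0.0462) also passed. JUNB stood apart from the rest: knockout-labelled library 1 held 25% of the pair's JUNB reads (Clopper-Pearson 95% interval 13.2% to 40.3%), where 45% of all reads were in that library. The intervals of the other 9 members included the expected share. METTL3 mRNA was not called lower in the knockout-labelled libraries (log2 change 0.48 ± 0.19 SE, limma adjusted p = 0.106), nor in the authors' deposited poly(A) table (adjusted p = 0.654). A knockout allele need not lower the mRNA and the labels do not describe the allele, so the mRNA does not settle the label, and these libraries are called knockout by label only.

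**Figure D1:**
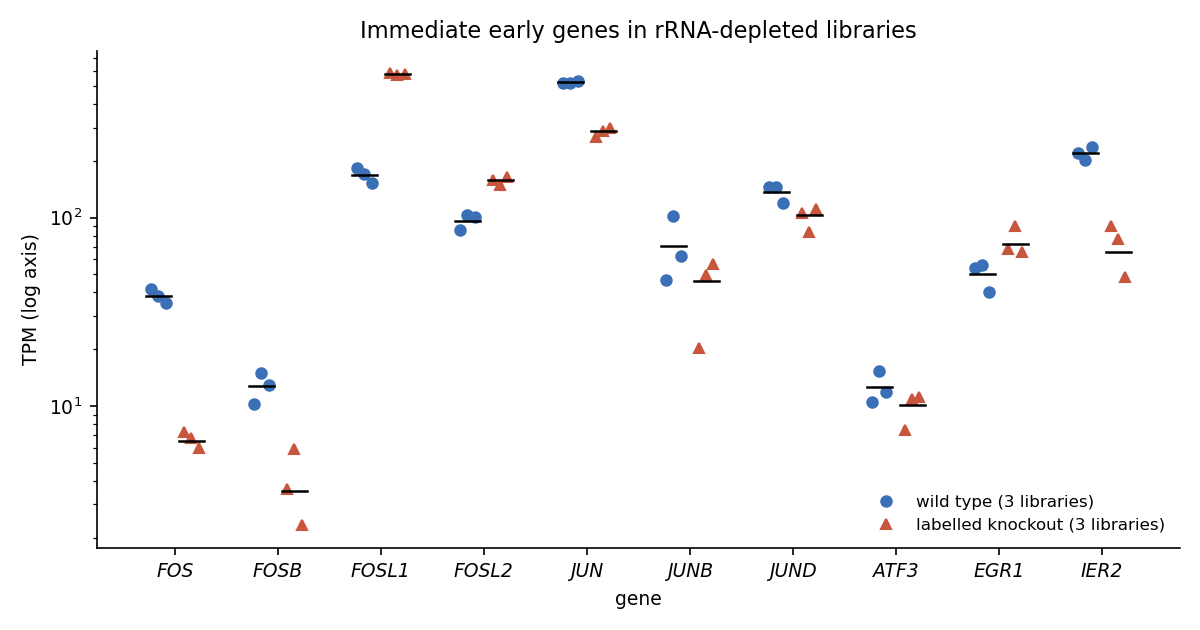
TPM of each of the 10 genes (log axis) in the 3 WT and 3 KO-labelled rRNA-depleted libraries, 1 point per library. FOSL1 and FOSL2 sit higher and FOS, FOSB, JUN and IER2 lower in all 3 knockout-labelled libraries, while the JUNB and ATF3 points of the groups overlap.

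Within the FOS family, the largest drop was in FOS itself (chr14:75278774-75282230), the founding member, which carries a strong activation domain. Its TPM was 41.6, 38.4 and 35.1 in WT libraries 1 to 3 and 7.25, 6.77 and 5.98 in knockout-labelled libraries 1 to 3. All 3 WT values lay well above all 3 others, and the WT mean was 38.4 ± 3.22 (SD, n = 3) against 6.50 ± 0.72 (SD, n = 2). On the log2(TPM + 1) scale of the test the change was -2.39 ± 0.23 (SE, limma adjusted p = 0.00261), and -2.80 relative to the median gene. That is 5.25-fold lower on this scale, which is less than the ratio of the TPM means. The reads behind it were few, between 12 and 19 per WT library and between 3 and 8 per knockout-labelled library, and the call was kept under all 14 alternative settings.

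FOSB (chr19:45467995-45475179), a close relative of FOS whose short splice form is ΔFosB, had a TPM of 10.2, 14.9 and 12.9 in WT and 3.62, 5.92 and 2.33 in the knockout-labelled libraries. The groups did not overlap, and the means were 12.7 ± 2.36 (SD, n = 3) and 3.55 ± 1.73 (SD, n = 2). The log2 change was -1.63 ± 0.44 (SE, limma adjusted p = 0.0382). The call was kept in 7 of 14 settings only. It ended when any 1 WT library or knockout-labelled library 1 or 3 was left out (adjusted p from 0.0606 to 0.167), with a trend on GC content removed (adjusted p = 0.124) and with no filter on low values (adjusted p = 0.0689). FOSB overlaps ERCC1 on the opposite strand, and whether the authors counted by strand is not given in the sources used here.

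FOSL1 (chr11:65892049-65900573) encodes FRA-1, a FOS family protein that lacks the strong activation domain of FOS. It had 184, 170 and 152 TPM in WT and 583, 570 and 578 TPM in the knockout-labelled libraries. The 3 knockout-labelled values lay close together and far above WT, at 577 ± 1.31 (SD, n = 2) against 169 ± 15.9 (SD, n = 3). FOSL1 thus rose 3.42-fold, which is 1.77 ± 0.12 on the log2 scale (SE, limma adjusted p = 0.00124), or 1.36 relative to the median gene. The call was kept in all 14 settings, with log2 changes from 1.42 to 2.31.

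FOSL2 (chr2:28392448-28417312), which encodes FRA-2, had 86.1, 102.7 and 100.4 TPM in WT and 159, 149 and 164 TPM in the knockout-labelled libraries. The lowest knockout-labelled value was above the highest WT value. The mean rose 1.65-fold, from 96.4 ± 8.98 (SD, n = 3) to 159 ± 7.36 (SD, n = 2), which is 0.72 ± 0.13 in log2 (SE, limma adjusted p = 0.0119). Relative to the median gene this is 0.31. FOSL2 overlaps AC104695.3 on its own strand and FLJ31356 on the other. The call ended under median ratio scaling (log2 change 0.37, adjusted p = 0.109) and without knockout-labelled library 3 (0.67, adjusted p = 0.0925).

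**Figure D2:**
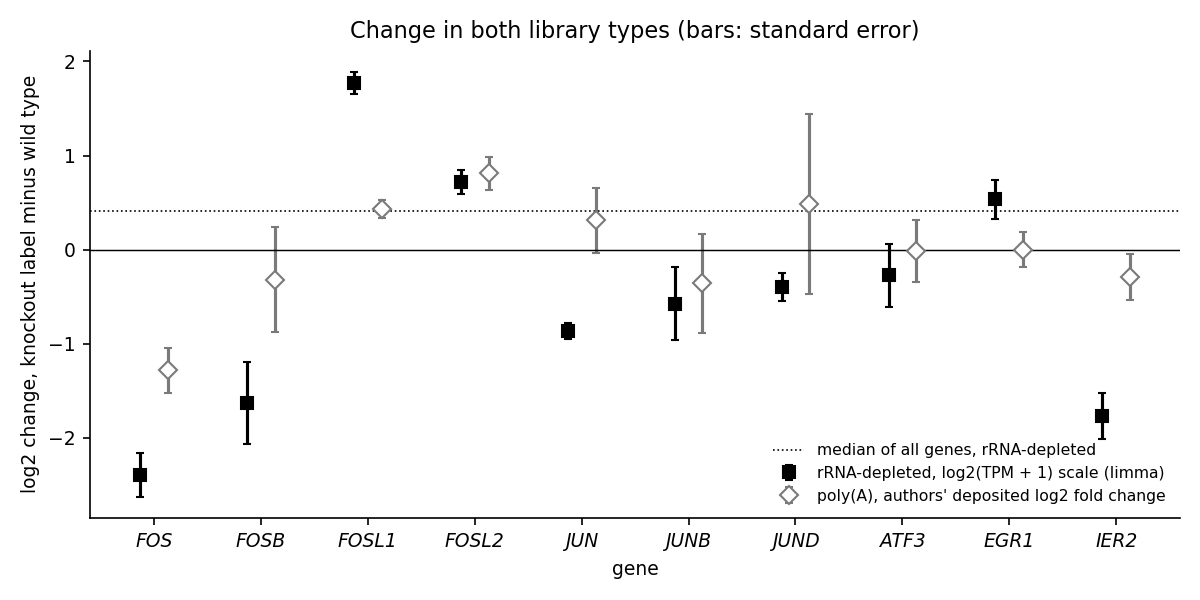
Log2 change, knockout-labelled minus WT, of the 10 genes in the rRNA-depleted libraries (limma) and in the authors' deposited poly(A) table. Bars show the standard error in both. FOS lies below 0 and FOSL1 and FOSL2 above 0 in both, while JUN is at -0.86 in the first and 0.31 in the second.

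The make-up of the FOS family follows from these changes and was chosen for description with them known, so it restates them as shares and adds no separate support. FOSL1 made up 57.2%, 52.2% and 50.6% of the family's TPM in the WT libraries and 77.5%, 77.9% and 77.0% in the knockout-labelled libraries. FOS itself went from 12.1% ± 0.69 (SD, n = 3) to 0.87% ± 0.10 (SD, n = 2). FOSB went from 4.02% to 0.48%, and FOSL2 from 30.5% to 21.3% although its own TPM rose. The groups did not overlap for any of these 4 shares. A two-sided exact permutation test of 3 samples against 2 cannot go below p = 0.2, which each of the 4 shares gave (0.267 after adjustment over the 8 shares tested).

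The ratio of FOSL1 to FOS, which joins the member that rose most to the one that fell most, was 4.43, 4.43 and 4.34 in the WT libraries and 80.4, 84.3 and 96.7 in the knockout-labelled libraries. The groups lay far apart, and the mean ratio of 89.5 ± 10.2 (SD, n = 2) was 20.4 times that of WT, 4.40 ± 0.05 (SD, n = 3), with an exact permutation p of 0.2, the smallest the design allows. In the authors' deposited poly(A) table the difference between the log2 changes of FOSL1 and FOS was 1.71, which is a 3.28-fold higher ratio in knockout. The ratio of FOSL2 to FOS rose from 2.54 to 24.7 by TPM, 9.74-fold, and was 4.27-fold higher by the authors' deposited table. The ratios of FOSL1 to FOSL2 and to JUN also differed between the library types. FOSL1 to FOSL2 was 2.05 times as high in knockout by TPM but 0.767 times by the authors' deposited table. FOSL1 to JUN was 6.24 times as high by TPM and 1.09 times by the authors' deposited table.

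The summed TPM of the 4 FOS family genes was 316 ± 13.5 (SD, n = 3) in WT and 747 ± 6.22 (SD, n = 2) in the knockout-labelled libraries, 2.36 times as much. The 3 JUN genes together had 731 ± 31.4 (SD, n = 3) and 437 ± 40.1 (SD, n = 2), 0.598 times as much. The FOS family thereby went from 31.2%, 29.8% and 29.6% of FOS and JUN family TPM to 65.6%, 63.5% and 61.8%. Over all 10 members the opposing changes cancelled, with 1329 ± 33.6 TPM (SD, n = 3) in WT and 1332 ± 13.5 (SD, n = 2) in knockout (exact permutation p = 1.0).

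**Figure D3:**
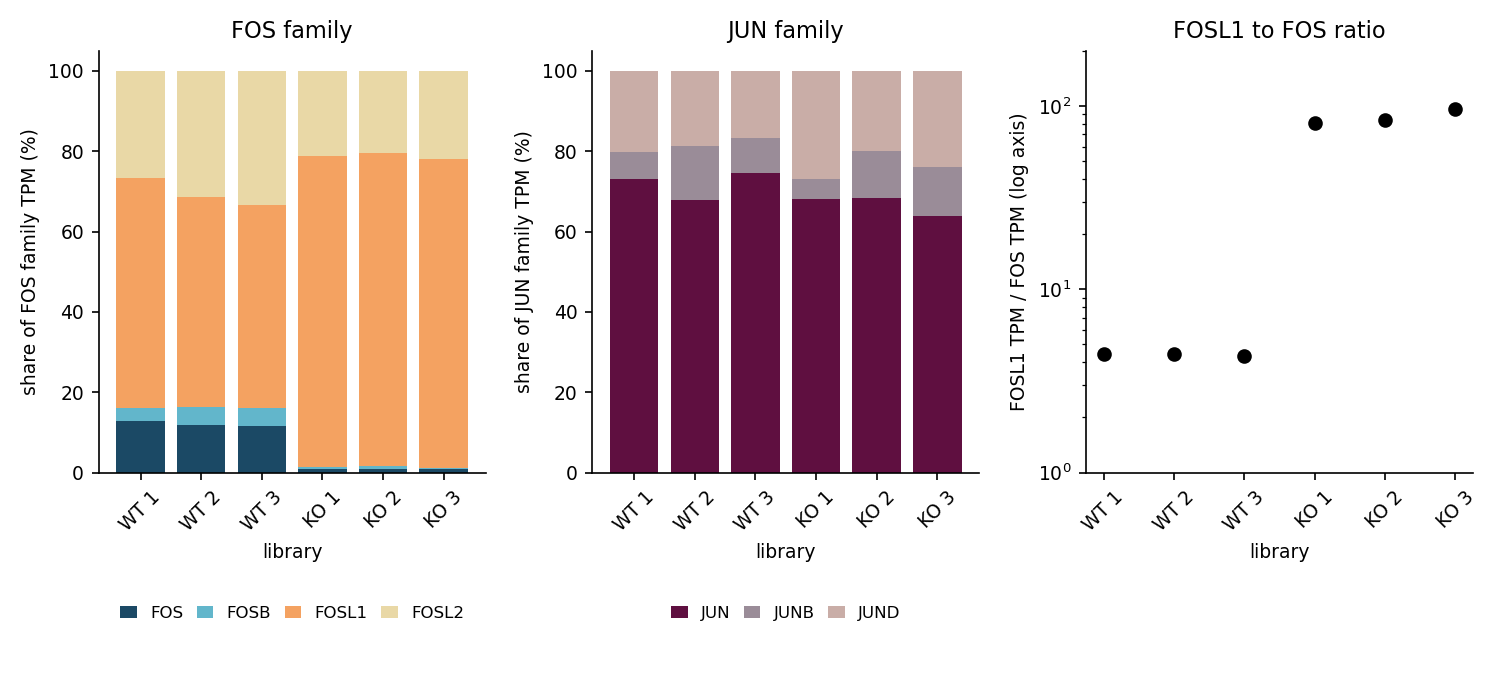
Share of each gene in the TPM of the FOS family and of the JUN family in each of the 6 rRNA-depleted libraries (stacked bars, percent), and the ratio of FOSL1 to FOS TPM (points, log axis). FOSL1 takes 77.0% to 77.9% of the FOS family in the knockout-labelled libraries against 50.6% to 57.2% in WT, and the FOSL1 to FOS ratio is at least 80.4 against at most 4.43.

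Among the JUN genes, JUN (chr1:58780788-58784327), the main partner of the FOS proteins and an intronless gene, fell. Its TPM was 520.2, 520.4 and 532.7 in WT and 269, 288 and 297 in the knockout-labelled libraries. The values within each group were close and the groups did not overlap. The mean went from 524 ± 7.18 (SD, n = 3) to 288 ± 13.4 (SD, n = 2), 1.82-fold lower, or -0.86 ± 0.09 in log2 (SE, limma adjusted p = 0.00287). The call was kept in all 14 settings. Its size ranged from -1.22 with median ratio scaling to -0.37 with the GC trend removed (adjusted p = 0.0349). JUN was the most abundant member in WT and came after FOSL1 in knockout.

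JUNB (chr19:12791496-12793315), which can hold back the activity of JUN, had 46.7, 102.3 and 62.5 TPM in WT and 20.3, 49.7 and 56.8 TPM in the knockout-labelled libraries. The groups overlapped and the spread was wide in both. The log2 change of -0.58 ± 0.39 (SE, 95% interval -1.56 to 0.41, limma adjusted p = 0.302) did not pass, and with the GC trend removed it had the opposite sign (0.20, adjusted p = 0.729). JUNB overlaps HOOK2 on the opposite strand.

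JUND (chr19:18279760-18281622), the JUN gene usually expressed in resting cells, had 144.5, 144.4 and 118.9 TPM in WT and 106.1, 83.8 and 110.9 TPM in the knockout-labelled libraries. The groups did not overlap, but the gap was small. The log2 change of -0.40 ± 0.15 (SE, limma adjusted p = 0.0925) did not pass. Its sign turned with the GC trend removed, where it was 0.83 (adjusted p = 0.021), so no direction is given for JUND. Of the JUN family's TPM, JUN made up 71.9% in WT and 66.1% in knockout, and JUND 18.6% and 23.6%. By single libraries the groups overlapped for all 3 shares (exact permutation p = 0.2 for JUND, 0.4 for JUN and 1.0 for JUNB).

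IER2 (chr19:13150415-13154908), a nuclear immediate early protein that is not a bZIP factor, fell. It had 219, 202 and 236 TPM in WT and 90.6, 76.7 and 48.4 TPM in the knockout-labelled libraries. The groups did not overlap. The mean went from 219 ± 16.8 (SD, n = 3) to 66.0 ± 24.9 (SD, n = 2). The log2 change was -1.77 ± 0.25 (SE, limma adjusted p = 0.00605), which is 3.40-fold lower on the log2(TPM + 1) scale of the test. The call was kept in all 14 settings, from -2.12 to -1.14. IER2 overlaps AC011446.2 on the opposite strand.

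EGR1 (chr5:138465490-138469315), induced by the same signals as FOS, had 54.2, 56.1 and 40.1 TPM in WT and 68.4, 89.9 and 65.9 TPM in the knockout-labelled libraries. The groups did not overlap, yet the log2 change of 0.53 ± 0.21 (SE, 95% interval 0.01 to 1.05, limma adjusted p = 0.101) did not pass and was 0.12 relative to the median gene. It passed in 3 of 14 settings, among them the one with the GC trend removed (1.02, adjusted p = 0.0238). The ratio of IER2 to EGR1 was 4.51 in WT and 0.895 in knockout, 5.04-fold lower, with no overlap (exact permutation p = 0.2). By the authors' deposited table it was 0.816 times as high in knockout.

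ATF3 (chr1:212565334-212620777), a stress-induced bZIP protein that can repress its own promoter, had 10.5, 15.4 and 11.9 TPM in WT and 7.47, 10.8 and 11.2 TPM in the knockout-labelled libraries. The groups overlapped. The log2 change was -0.27 ± 0.33 (SE, 95% interval -1.11 to 0.57, limma adjusted p = 0.559), and no setting gave a call. These values rested on 6 to 16 reads per library.

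**Figure D4:**
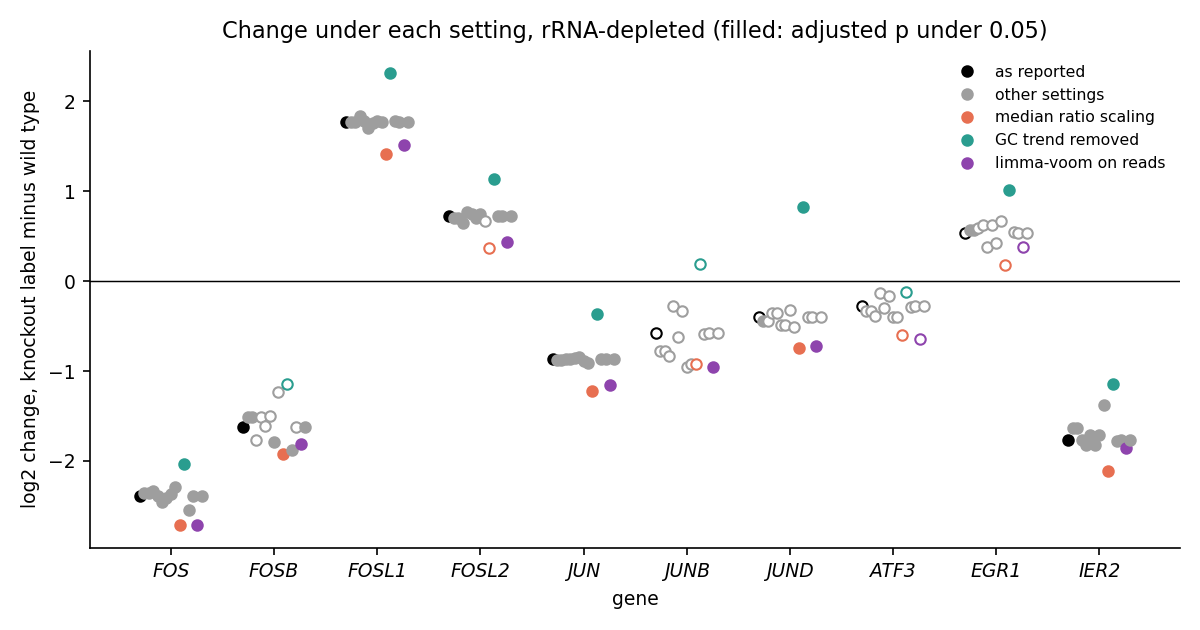
Log2 change of each of the 10 genes, knockout-labelled minus WT, in the rRNA-depleted libraries under the reported analysis and the 14 alternatives, 1 point per setting. FOS, FOSL1, JUN and IER2 stay on 1 side of 0 and past the threshold throughout, and JUND and JUNB cross 0 with the GC trend removed.

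In the poly(A) libraries, the authors' deposited table gave FOSL1 and FOSL2 as higher in knockout and FOS as lower. By its adjusted p under 0.05, 2 of the 10 members rose (9.55% of the 14009 genes with an adjusted p were higher) and 1 fell (10.3% were lower), so 3 of 10 were called against 19.9% in either direction. The log2 change in the authors' deposited table was -1.28 ± 0.24 (SE, adjusted p = 2.71e-06) for FOS, 0.43 ± 0.10 (SE, adjusted p = 0.000175) for FOSL1 and 0.81 ± 0.17 (SE, adjusted p = 5.94e-05) for FOSL2. The table does not name its numerator, and positive was taken as higher in knockout, so these directions rest on that reading. The differences between the library types were not tested, since the authors' deposited table holds no value for a single library.

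The other members did not pass in the authors' deposited table. IER2 had a log2 change of -0.29 ± 0.24 (SE, adjusted p = 0.453) there and FOSB -0.32 ± 0.56 (SE, adjusted p = 0.758). JUN had the sign opposite to that in the rRNA-depleted libraries, at 0.31 ± 0.34 (SE, adjusted p = 0.597). For EGR1 and ATF3 the authors' deposited table gave 0.00 ± 0.18 and -0.02 ± 0.33 (SE). In all, 8 of the 10 members had the same sign in both library types, counting EGR1, whose poly(A) value was 0.00 after rounding. The median log2 change of the members was -0.01 in the authors' deposited table, against 0.02 over all its genes.

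The library types also ranked the members differently by level. In the rRNA-depleted libraries JUN had the highest TPM in WT (524, against 169 for FOSL1), and FOSL1 in knockout (577, against 288 for JUN). JUND was above EGR1 and FOS in both groups. By the mean normalized count per kilobase of exon, from the authors' deposited table and GENCODE 29 lengths, FOSL1 came first with 164, followed by EGR1 with 14.4. In that order JUN, with 3.84, was below FOS and ATF3, and JUND, with 1.04, was above FOSB alone. For JUN the mean normalized count behind this was 13.6, for JUND 1.93 and for FOSB 3.33, and the wide standard errors of these 3 genes stand beside those low counts. Poly(A) count per kilobase divided by the mean TPM of the 6 libraries was lowest for JUND (0.00881) and JUN (0.00949) and highest for FOSL1 (0.44), and the part of library chemistry in this was not tested.

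Several sequence properties were shared by the members beyond their names. JUN, JUNB, JUND and IER2 have a single exon in their longest coding transcript, which is 4 of 10 against 2.62% of the protein-coding genes tested. All 10 transcripts had a GC content above the median of 48.7%, from 50.8% in ATF3 to 69.7% in JUND. The letters GGAC, the core of the usual m6A context, occurred more often per kilobase than the median of 3.64 in 6 of the 10, from 1.80 in FOSL1 to 8.24 in JUNB. The members that fell had 3.24 (FOS), 5.83 (FOSB), 4.24 (JUN) and 5.11 (IER2) per kilobase, and those that rose 1.80 (FOSL1) and 5.81 (FOSL2). Methylation itself was not measured in these libraries.

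GC content moved with the change over all genes, so it is given beside the members. Genes within 2.5 GC points of JUND had a median log2 change of -0.71, those near JUNB -0.41 and those near IER2 -0.19. Genes near FOS in GC had a median of 0.33, those near JUN 0.09, those near FOSL2 0.28 and those near FOSL1 -0.06. With the GC trend removed, FOS was at -2.03 (limma adjusted p = 0.00466), IER2 at -1.14 (adjusted p = 0.0396), FOSL1 at 2.31 (adjusted p = 0.00092) and FOSL2 at 1.14 (adjusted p = 0.00358).

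Promoter windows of 300 bases (250 before the start and 50 after it, RefSeq on GRCh38.p14) were matched for 9 of the 10 members, all but FOSL1. The TATA motif TATAAA, on either strand, was found in FOS, FOSB, JUNB and ATF3, and in 11.5% of 35116 promoters. It is shown in capitals for FOS and FOSB, which both fell, and JUNB, and the CArG box, to which serum response factor binds, is in capitals for EGR1.
FOS, chr14:75278783-75278812, plus strand: taaaacgcttgtTATAAAagcagtggctgc
FOSB, chr19:45467954-45467983, plus strand: gggtcccgggcaTATAAAtacaggctggcg
JUNB, chr19:12791443-12791472, plus strand: tgactagcgcggTATAAAggcgtgtggctc
EGR1, chr5:138465386-138465415, plus strand: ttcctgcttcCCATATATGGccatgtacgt
The CArG box was found in this window for EGR1 alone among the members, with 2 matches, and in 1.29% of all promoters. The window of JUND held TGACGTCA, the cyclic AMP response element (1.85% of promoters), and that of FOSL2 held TGANTCA, the AP-1 site itself (7.71%). These matches describe letters in the windows and not binding.

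For each member with a mean of at least 20 TPM, the protein-coding gene with the most similar profile was sought among 6046 that are no members, by the root mean square difference of centred log2 values over the 6 rRNA-depleted libraries. For FOSL1 it was SEC23IP (0.029) and for FOS it was BEX3 (0.071, from 1976 TPM in WT to 399 in knockout). JUN was nearest to GPAA1 (0.043) and FOSL2 to BAZ1B (0.043).

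Around the members, 30 of 35 other immediate early genes were tested in the rRNA-depleted libraries, of which 6 rose (22.9% of all genes) and 10 fell (12.4%). Without knockout-labelled library 3 these were 1 and 5, without WT library 1 they were 3 and 7, and median ratio scaling gave 3 and 15. Their median log2 change was -0.36, on the same side of 0 as that of the members. RHOB, a small GTPase, fell by 1.43 on the log2 scale, a call kept in all 14 settings (-0.94 with the GC trend removed). DUSP5, a phosphatase of ERK, fell by 1.46. BTG1, an antiproliferative gene, rose by 2.53. DUSP6, another ERK phosphatase, rose by 1.56 (limma adjusted p = 0.0364, kept in 8 of 14 settings). Of 26 given in the authors' deposited table, 6 rose (9.55% of all its genes with an adjusted p) and 3 fell (10.3%). Those that rose included BTG1 at 1.54, DUSP6 at 1.12 and PHLDA1 at 0.90, and those that fell were GADD45B, CCN1 and IER3. IER3 was called the other way in the rRNA-depleted libraries, higher by 0.60 (limma adjusted p = 0.0299). RHOB (0.35 ± 0.34 SE) and DUSP5 (0.61 ± 0.76 SE) did not pass in the authors' deposited table.

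Of the other bZIP partners of AP-1, 3 of 11 rose (22.9% of all genes) and 3 fell (12.4%), and 0 and 0 did without knockout-labelled library 3. Without WT library 3, 1 rose, and the same number did with median ratio scaling. The activating factors ATF2 (2.72), ATF7 (2.61) and CREB1 (1.42) rose on the log2 scale, and the small MAF genes MAFK (-1.53) and MAFF (-1.35) and the repressor JDP2 (-1.12) fell. With the GC trend removed only ATF2 stayed past the threshold among these. Of 10 in the authors' deposited table, 1 rose (9.55% of all its genes) and 0 fell (10.3%). ATF2 (0.13 ± 0.12 SE), ATF7 (0.02 ± 0.18 SE) and CREB1 (0.19 ± 0.12 SE) did not pass there. Neither did MAFF (0.97 ± 0.46 SE) or JDP2 (-1.66 ± 0.77 SE), and MAFK had no adjusted p there.

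Of 23 kinases and ternary complex factors upstream of these genes, 8 rose (22.9% of all genes) and 4 fell (12.4%) in the rRNA-depleted libraries. Without knockout-labelled library 3 these were 1 and 1, without WT library 1 or WT library 3 they were 6 and 2, and with the GC trend removed 9 rose and 0 fell. ELK3, a ternary complex factor that binds beside serum response factor, rose by 2.32, and RPS6KA1, a kinase downstream of ERK, fell by 1.07 (adjusted p = 0.0645 by limma with the GC trend removed). By the authors' deposited table, 3 of the 23 rose (9.55% of all its genes) and 0 fell (10.3%). The JNK-activating kinase MAP2K4 rose most there, by 0.84. ELK3 (0.01 ± 0.09 SE) and RPS6KA1 (-0.10 ± 0.22 SE) did not pass there. In both library types 2 genes of the list were called the same way, beside 67.3% of the 1327 genes past both thresholds that shared a sign. MRTFA, a coactivator of serum response factor, was called lower in the rRNA-depleted libraries (-0.81) and higher in the authors' deposited table (0.27).

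Of 20 known AP-1 and EGR1 target genes tested, 8 rose (22.9% of all genes), CCL2 and CXCL8 among them, and 3 fell (12.4%). Without knockout-labelled library 3 these were 4 and 1. CD44, an adhesion receptor, rose by 3.47, a call kept in all 14 settings (3.15 with the GC trend removed). The cytokine gene LIF fell by 1.60 but did not pass in the authors' deposited table (-0.06 ± 0.23 SE). CCL2, a chemokine gene, had no read in the 3 WT libraries and 13, 14 and 8 reads in the knockout-labelled ones, at least 1.98-fold higher against a floor of 3 reads per library. In the authors' deposited table CCL2 was at -0.03 ± 0.29 (SE, adjusted p = 0.964). CXCL8, another chemokine gene and one of the 8, had no read in WT and 2 in each knockout-labelled library, under that floor, so no fold is given from these libraries. It was higher by 2.57 in the authors' deposited table. CCL2 and CXCL8, with no read in WT, met the filter on low values through the knockout-labelled libraries alone. Both could thus only be called higher in the rRNA-depleted libraries. Among 19 given in the authors' deposited table, 7 rose (9.55% of all its genes) and 2 fell (10.3%). Those that rose included the protease gene PLAU (1.82), CCND1 (1.15) and CD44 (1.10), and HMGA1 (-0.91) and F3 (-0.45) fell. In both library types 6 genes of this list were called the same way, among them CXCL8, whose rRNA-depleted call could only be higher. Of the 1327 genes past both thresholds in the whole data, 67.3% had the same sign.

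Of 10 factors that bind AU-rich elements or speed the decay of such mRNAs, 8 rose and 0 fell in the rRNA-depleted libraries (22.9% and 12.4% of all genes), with a median log2 change of 1.66. Without knockout-labelled library 3, 3 rose, and with the GC trend removed 8 rose and 2 fell. PUM2 rose by 2.73 and TIA1 by 3.47. ZFP36, which recruits the deadenylation machinery to AU-rich elements, rose by 2.15 but kept its call in 8 of 14 settings. None rose in the authors' deposited table (0 of 10, against 9.55% of all its genes). There HNRNPD alone fell, by 0.32 (10.3% of all its genes fell), and the list median was 0.06. The members with TATTTAT sites moved both ways beside this.

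**Figure D5:**
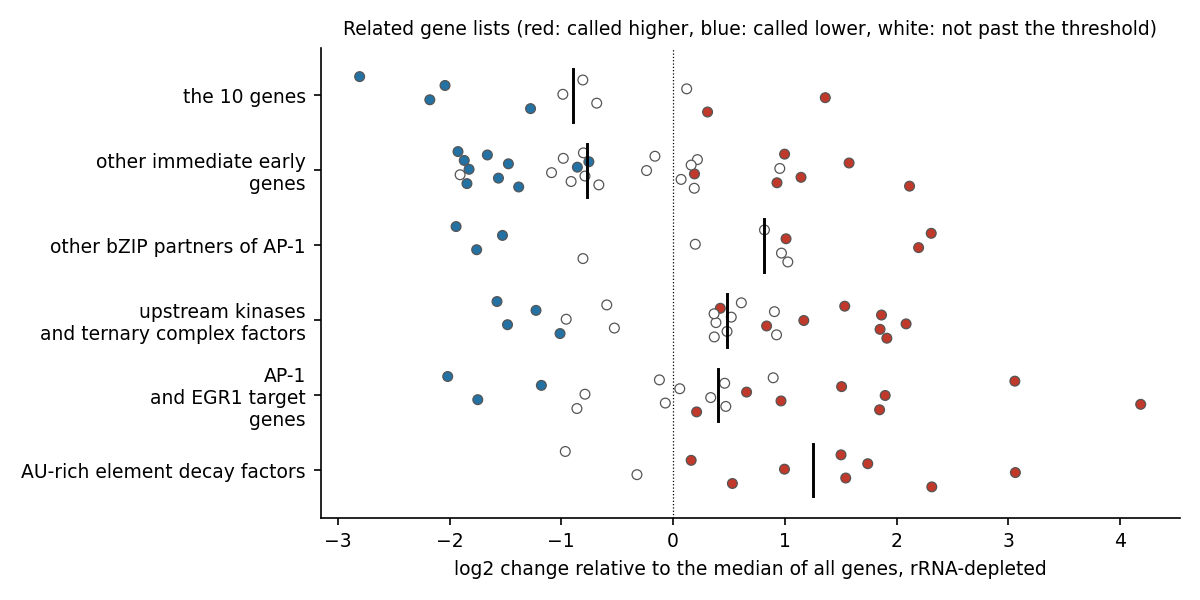
Log2 change in the rRNA-depleted libraries, knockout-labelled minus WT, relative to the median of all genes tested. There is 1 point per gene, for the members and for each tested gene of the 5 surrounding lists, with the median of each list. On this relative scale the AU-rich element decay factors have a median of 1.25, and the other immediate early genes -0.77.

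Depth differed with the label. The WT libraries held 266130 to 487243 reads over genes with a length and the knockout-labelled ones 512597 to 1267177, and its part in the results was not tested. Of 13 microglia markers, 9 were listed at 0 in all 6 libraries, among them AIF1, CX3CR1, P2RY12, TMEM119 and SPI1, so the labelled cell type was not borne out by its defining markers in these libraries. The summed TPM of the 13 was 47.0 to 67.3 in WT and 65.4 to 90.6 in knockout. The 8 fibroblast and pericyte markers summed to 10730 to 13170 TPM in WT and 3136 to 3304 in knockout. COL1A1 carried that difference, with a mean of 10670 TPM in WT and 819 in knockout, while VIM rose from 476 to 2242 TPM. Of the 6 markers of this list that were tested, 1 rose and 4 fell, and by the authors' deposited table there were 2 that rose and 1 that fell. The part of these markers in the changes of the members was not tested. In RNA from bulk cultures, fewer cells that express a gene and less RNA per cell cannot be told apart.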

How the data were processed

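The members and the lists were chosen with earlier results of these data known. The authors deposited TPM for the 6 rRNA-depleted libraries. Their other file holds 1 poly(A) comparison. In it the authors deposited, per gene, a signal (the mean normalized count), its log2 fold change and standard error, a score (the Wald statistic) and raw and adjusted p-values, with nothing for a single library. Trimmomatic, STAR, DESeq2 and hg38 are named in the submitters' processing notes. The counting tool, annotation and use of strand are not given in the sources used here. The count fit planned for poly(A) became a description of that table. Its numerator is not named. With positive read as higher in knockout, 91.5% of the 177 genes past the threshold and changed by at least 1 on the log2 scale in both types had the same sign, as did 67.3% of the 1327 genes past both thresholds at any size.

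TPM was tested with limma 3.58.1 in R 4.3.3 (trend) on log2(TPM + 1), a scale that understates the change of low genes, for genes at 1 TPM or more in 3 or more libraries, with Benjamini-Hochberg adjustment at 0.05. Knockout-labelled libraries 1 and 2 were averaged. Reads were recovered from TPM with GENCODE 29 exon lengths, which matched 93.8% of genes, and 90.9% of values above 0 came out whole to within 0.02 reads. Read intervals cover counting error only. Shares and ratios were tested by two-sided exact permutation in scipy 1.17.1. Tested on simulated data of 14673 genes, the limma step recovered 48 of 200 genes changed by 2 on the log2 scale and called 21 others. For 10881 genes averaging 5 reads or more, 129 of 200 were recovered and 2 others called. List genes are named by rule: up to 3 per direction and library type with the largest change past the threshold, a mean of at least 5 TPM or 50 normalized counts, and a symbol; of those, the text names a part. Named with values already seen were CXCL8, COL1A1, VIM and, for poly(A), BTG1. Same-numbered libraries did not deviate together (r = 0.02, -0.02 and 0.008), so the numbers do not pair samples. The alternatives were other scalings, a GC trend removed, another pseudocount, no filter, limma-voom on whole reads, a replicate block, libraries 1 and 2 kept separate, each library left out and, added after seeing the data, a minimum mean of 5 reads.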

Additional observations from a re-analysis of the deposited data

How the results depend on the processing

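FOS, FOSL1, JUN and IER2 kept their direction and their call under all 14 alternatives. Of the 10 members, 2 rose and 4 fell. The number that rose was 1 with median ratio scaling, 4 with the GC trend removed and 1 at an adjusted p under 0.01. The number that fell was 6 with limma-voom, 5 with median ratio scaling, 5 with libraries 1 and 2 separate and 3 with the GC trend removed. With 1 library other than knockout-labelled library 3 left out, 2 rose and 3 to 4 fell. Without library 3 the knockout group is 1 sample, so that fit is left out of the ranges of calls here. It is 1 of the 14 alternatives. With the GC trend removed, JUNB (0.20) and JUND (0.83) turned sign. The share of JUNB in the JUN family differed by 0.83 percentage points and by -0.99 to 2.73 with 1 library left out. In the 5 lists, 33 genes rose and 20 fell. Those that rose numbered 21 with median ratio scaling and 14 at 0.01. With 1 library other than knockout-labelled library 3 left out, 25 to 32 rose. Those that fell numbered 12 with the GC trend removed, 31 with limma-voom, 9 at 0.01 and 7 to 20 with 1 library left out. With a further limit of 1 on the absolute log2 change, the number of members that rose in the authors' deposited table was 0. With the replicate block, 3 members rose and 4 fell, and 37 and 22 list genes. Over all genes 5220 were called, and 1663 without knockout-labelled library 3. Of all calls, 64.8% were higher, against 48.6% with median ratio scaling. Of all genes tested, 35.3% were called as reported, 50.3% with limma-voom and 46.5% with libraries 1 and 2 separate. The share was 40.8% with the replicate block, 32.9% with median ratio scaling and 30.8% with the GC trend removed. With 1 library left out and knockout-labelled library 3 kept, it was 29.4% to 35.1%. The counts above are to be read beside these shares. The causes were not tested. FOS, FOSB and ATF3 rested on 2 to 19 reads per library.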
